A study of Rattus norvegicus with 16 samples.

Results

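The genes described here serve protein folding in the endoplasmic reticulum (ER), the unfolded protein response, and the step that carries folded proteins out of the ER. They were 40 genes, matched by symbol to the array's annotation. The rule for membership uses no measured value, but the list was drawn up with earlier results of these data known. Of these, 38 were found on the array and 37 were expressed well enough to be tested, against 14217 genes on the array and 8344 tested in the whole series. Ern1 (the IRE1 sensor) and Derl3 (a derlin) were not matched to a probe set, and Creb3l2 lay below the minimum level. The tissue was the initial segment of the epididymis, the stretch nearest the testis, from adult male Sprague-Dawley rats. There were 4 groups, each with 4 arrays, 1 per tissue sample: a sham operation, and 6, 12 and 18 h after unilateral efferent duct ligation (EDL), which stops testicular fluid from entering the duct. The sham side was, per the labels, the opposite epididymis of the same animal, the labels list no other treatment, and the 1 sham group served every time. The replicates are called biological, but no label ties a number to an animal, so each p-value measures the spread between arrays.

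Secreted and membrane proteins enter the ER through the translocon, fold there with the help of chaperones and disulfide isomerases, and leave in COPII-coated vesicles, often bound to cargo receptors. When unfolded proteins pile up, the sensors IRE1, PERK and ATF6 start the unfolded protein response, which raises chaperone and ER-associated degradation (ERAD) genes through transcription factors such as XBP1 and ATF6. The epididymal epithelium secretes much protein into the duct, and this machinery is needed for that secretion. Transcript levels do not show whether a sensor was active, since IRE1 acts by splicing the Xbp1 message and PERK by phosphorylation.

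Values are log2 expression from the deposited table, 1 per probe set and array, and the brightest probe set on average stood for a gene that had several. Levels of different genes are not compared, since probe sets differ in brightness. Of the tissue markers, all 12 epithelial ones found on the array reached 5 on at least 1 array. So did all 8 fibroblast markers, while 1 of 7 smooth muscle, 2 of 9 macrophage and 4 of 6 endothelial markers did not. Reaching this level therefore does not tell epithelium from fibroblasts, smooth muscle or macrophages. All 6 plasma and B cell markers, types rich in ER, lay below 5 on every array. Replicates 1 and 2 of the 12 h group stood apart. They carried the neutrophil markers S100a8 (4.92 and 8.75, against 2.22 to 2.39) and S100a9 (8.47 and 10.36, against 2.91 to 4.61 elsewhere). Of the 4 neutrophil markers found on the array, 2 (Csf3r and Cxcr2) lay below 5 on every array. These arrays also had the lowest epithelial marker means (11.28 and 11.09, against 11.57 to 12.09 elsewhere). That list moved both ways on these arrays: Cst12 was low, at 10.29 and 9.14, against 13.29 and 12.83 on 12 h replicates 3 and 4, while Krt8 was high, at 11.69 and 11.80, against 11.52 and 11.41. Of the sperm transcripts Prm1, Odf1 and Smcp, from cells that arrive with the fluid, Smcp fell at 6 h and all 3 fell at 12 and 18 h; their 6 h log2 differences ran from -4.78 to -3.56, with all 3 at an unadjusted p under 0.05. Further divisions touch the results below. Replicates 3 and 4 differed from replicates 1 and 2 at 36.9% of all tested probe sets. Within replicates 3 and 4, the control transcript dap read 7.10 to 7.93 in the sham and 6 h groups and lay at the floor of 2.22 in the 12 and 18 h groups, so the arrays were also treated as 3 sets, with replicates 1 and 2 of every group as the first.

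The response elements that XBP1 and ATF6 are known to bind were sought in the promoter windows of these genes, to show which members carry the classical stress-response sequence. RefSeq windows, from 250 bases before to 50 after the gene start in the rat build GRCr8, were at hand for 31 of the 40 members (Hyou1 had several, and the first was used). The motifs were the ER stress response element (ERSE: CCAAT, any 9 bases, then CCACG), ERSE-II (ATTGG, any base, then CCACG), the core of the unfolded protein response element (UPRE: TGACGTGG) and CCACG alone, on both strands. ERSE was present in 8 of 31 member windows (25.8%), against 0.0765% of all 27457 windows. ERSE-II was present in 3 (9.68%), against 0.0546%, the UPRE core in 2 (6.45%), against 0.637%, and CCACG in 24 (77.4%), against 32.5%. Because ERSE and ERSE-II both contain CCACG, these counts overlap. The members with ERSE were Hspa5, Hsp90b1, Dnajc3, Calr, Canx, Xbp1, Creld2 and the unmeasured Derl3; those with ERSE-II were Dnajb11, Hyou1 and Herpud1. A match describes the letters and is not a test of binding. Many of these genes are known for this response, so the share is no finding of the experiment.

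The 6 windows below belong to members whose values are given array by array, and they span the chaperones, the transcription factor Xbp1 and the ERAD gene Herpud1. Each is written 5′ to 3′ along the gene, and capitals mark ERSE, ERSE-II and UPRE core matches. Hspa5 lies at chr3:38452766-38453065 on the plus strand, with 1 ERSE.
Hspa5: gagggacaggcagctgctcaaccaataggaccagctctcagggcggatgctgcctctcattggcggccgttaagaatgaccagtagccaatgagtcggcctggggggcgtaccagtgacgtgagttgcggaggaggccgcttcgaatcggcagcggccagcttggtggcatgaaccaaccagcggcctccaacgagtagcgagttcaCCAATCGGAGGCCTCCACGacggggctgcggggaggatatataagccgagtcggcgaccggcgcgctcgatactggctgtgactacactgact
Hsp90b1 lies at chr7:23012244-23012543 on the minus strand, with 1 ERSE in each orientation.
Hsp90b1: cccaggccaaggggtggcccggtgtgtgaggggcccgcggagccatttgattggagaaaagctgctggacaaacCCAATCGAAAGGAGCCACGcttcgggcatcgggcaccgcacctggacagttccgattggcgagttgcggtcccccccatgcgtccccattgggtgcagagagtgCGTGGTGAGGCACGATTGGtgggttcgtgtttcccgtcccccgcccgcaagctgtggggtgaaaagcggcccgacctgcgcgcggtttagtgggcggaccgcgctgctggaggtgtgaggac
Xbp1 lies at chr14:84604373-84604672 on the plus strand, with 1 ERSE.
Xbp1: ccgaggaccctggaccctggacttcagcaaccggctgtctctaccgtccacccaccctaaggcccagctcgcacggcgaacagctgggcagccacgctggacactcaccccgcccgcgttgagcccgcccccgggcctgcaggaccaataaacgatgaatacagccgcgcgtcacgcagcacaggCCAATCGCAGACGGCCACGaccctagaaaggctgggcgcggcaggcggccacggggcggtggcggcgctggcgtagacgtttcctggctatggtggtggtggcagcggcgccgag
Herpud1 lies at chr19:10614658-10614957 on the minus strand, with 1 ERSE-II.
Herpud1: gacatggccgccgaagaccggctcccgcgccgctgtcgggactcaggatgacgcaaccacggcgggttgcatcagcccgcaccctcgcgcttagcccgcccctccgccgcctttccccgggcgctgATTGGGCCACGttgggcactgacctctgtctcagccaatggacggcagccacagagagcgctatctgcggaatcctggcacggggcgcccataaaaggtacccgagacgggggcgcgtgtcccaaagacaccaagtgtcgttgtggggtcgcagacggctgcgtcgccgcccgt
Creld2 lies at chr7:121789134-121789433 on the plus strand, with 1 ERSE in the reverse orientation.
Creld2: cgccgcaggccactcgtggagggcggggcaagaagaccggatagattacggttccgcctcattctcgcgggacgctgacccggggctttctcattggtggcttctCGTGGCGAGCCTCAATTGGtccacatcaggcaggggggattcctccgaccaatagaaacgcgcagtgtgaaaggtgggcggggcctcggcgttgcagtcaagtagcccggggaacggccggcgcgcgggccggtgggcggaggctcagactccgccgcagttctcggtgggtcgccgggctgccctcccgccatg
Hyou1 lies at chr8:53602632-53602931 on the plus strand, with 2 ERSE-II matches, 1 of which overlaps a UPRE core.
Hyou1: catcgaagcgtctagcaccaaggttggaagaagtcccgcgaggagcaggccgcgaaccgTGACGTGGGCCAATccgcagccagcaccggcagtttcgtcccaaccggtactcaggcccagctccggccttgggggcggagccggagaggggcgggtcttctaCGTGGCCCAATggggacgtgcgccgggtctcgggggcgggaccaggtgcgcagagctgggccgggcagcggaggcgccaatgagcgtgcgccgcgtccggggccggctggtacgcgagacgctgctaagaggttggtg

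**Figure D1:**
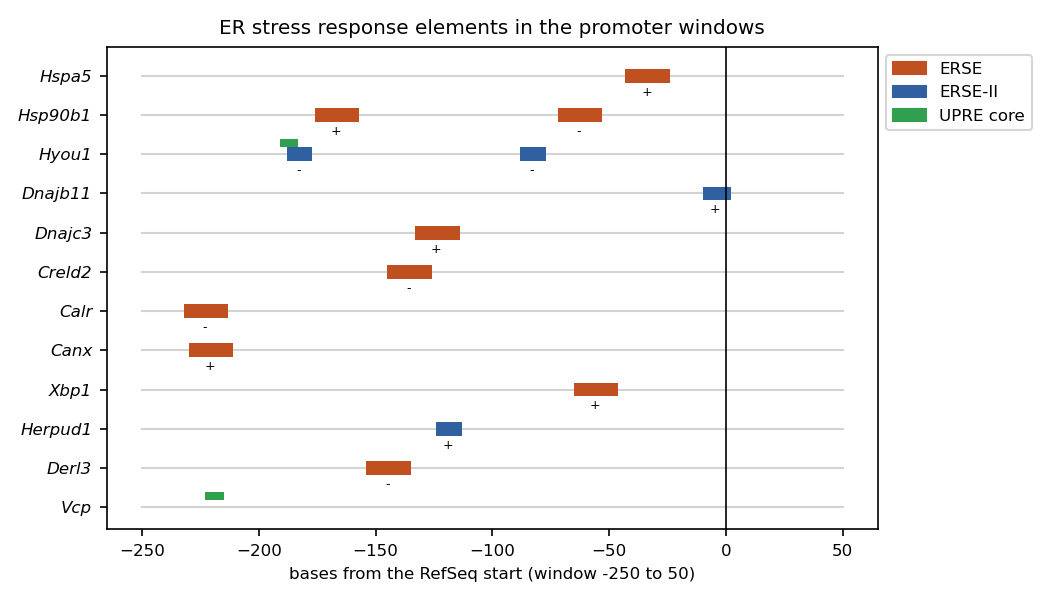
Position of each element in the 12 member windows that hold one, in bases from the RefSeq start. Bars are matches coloured by motif, with a plus or minus sign for the strand; every element ends before the start except that of Dnajb11, which reaches it.

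Few of these genes were called after ligation, and their differences were mostly small. A member was called where limma's adjusted p, taken over all 13410 tested probe sets, was under 0.05. At 6 h 0 of 37 members were called, beside 0.283% of all tested probe sets. An unadjusted p under 0.05 was found for 1 member, beside 764 of the 13410 tested probe sets. At 12 h 1 fell and 0 rose, beside 7.86% of all tested probe sets called. At 18 h 2 fell and 0 rose, beside 10.2%. Between the times, 2 fell and 0 rose at 12 h against 6 h, beside 4.28%. At 18 h against 12 h 0 were called, beside 0%. There, 2 members had an unadjusted p under 0.05, beside 877 of the 13410 tested probe sets. Beside these backgrounds the counts are not a result about the genes as a group. The 95% interval of the change lay within 2-fold either way for 35 of the 37 members in each comparison with sham.

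The medians were small. At 6 h the median log2 difference of the members was 0.14, with 33 of 37 above 0, beside a median of 0.024 and 56.76% above 0 over all tested probe sets. At 12 h it was -0.058, with 13 of 37 above 0, beside 0.024 and 54.24% over all tested probe sets. At 18 h it was -0.17, with 6 of 37 above 0, beside 0.010 and 51.78%. The 12 h against 6 h median was -0.17, with 4 of 37 above 0, beside -0.0048 and 49.07%. These comparisons share the sham or the 6 h arrays, and the members moved together from array to array within groups, as described further down, so the counts above 0 are not independent votes. The members with an unadjusted p under 0.05 numbered 4 at 12 h, 8 at 18 h (2 higher and 6 lower) and 11 at 12 h against 6 h (1 higher and 10 lower), beside 2618, 2972 and 2362 of the 13410 tested probe sets.

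**Figure D2:**
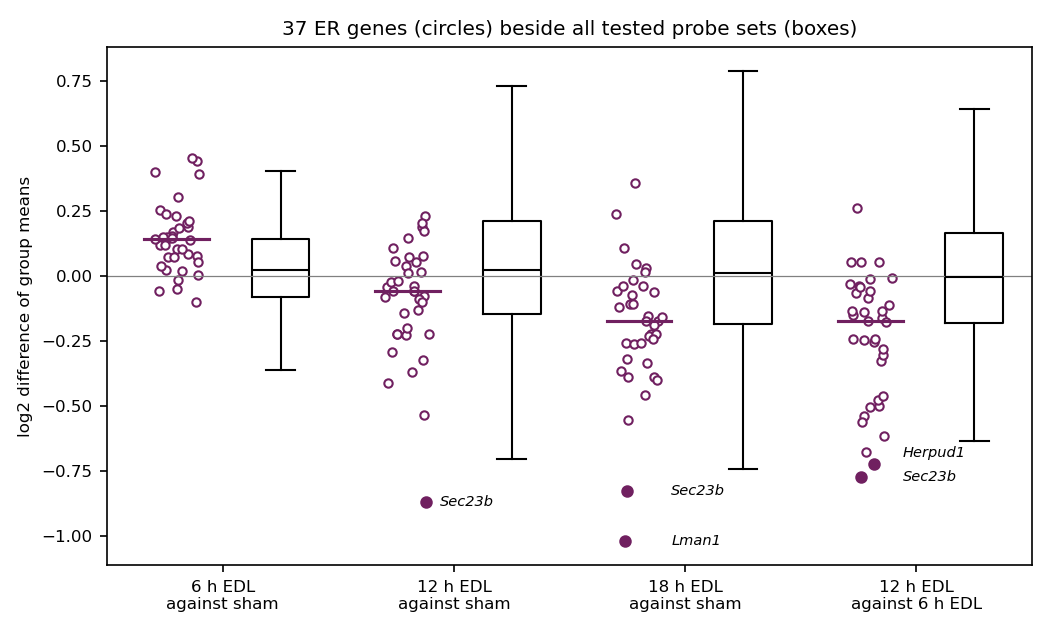
Log2 difference of group means for the 37 tested members (circles, left of each pair; filled and named where called; line at their median) and for all 13410 tested probe sets (boxes: quartiles and median, whiskers at the 5th and 95th percentiles). The members' medians are 0.14, -0.058, -0.17 and -0.17 from left to right, and most circles lie inside the whiskers.

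The members called against sham, Sec23b and Lman1, belong to the machinery of ER exit. Sec23b, which encodes a subunit of the inner COPII coat, read 11.17, 11.27, 11.27 and 11.19 in the sham arrays, 11.03, 11.21, 11.19 and 11.07 at 6 h, 10.23, 10.35, 10.47 and 10.36 at 12 h and 10.56, 10.67, 10.35 and 10.005 at 18 h. The sham and 6 h arrays overlapped, and every 12 h and 18 h array lay below both. The level averaged 10.35 ± 0.096 at 12 h and 11.22 ± 0.052 in sham (SD, n = 4 each), a fall to 0.547-fold (95% interval 0.456 to 0.656) with a limma adjusted p of 0.000461. At 18 h it averaged 10.40 ± 0.29, which was 0.564-fold (95% interval 0.470 to 0.676) of the sham level with a limma adjusted p of 0.000553. The 6 h difference from sham was -0.098 (-0.36 to 0.16), and 12 h lay below 6 h by a log2 difference of -0.77 (limma adjusted p = 0.00311). The differences from sham were called in each of the 16 fits that left out 1 array, and with the array set as a block (limma adjusted p = 0.00532 at 12 h and 0.00623 at 18 h). Without the 12 h arrays that carried neutrophil transcripts the 12 h difference was -0.81 (limma adjusted p = 0.00985). In bulk tissue, fewer cells of a type and less RNA per cell cannot be told apart.

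Lman1 encodes ERGIC-53, a lectin that ferries glycoproteins from the ER to the Golgi. It read 8.51, 9.01, 8.85 and 8.96 in the sham arrays, 9.08, 9.15, 9.23 and 8.73 at 6 h, 9.01, 8.19, 8.48 and 8.48 at 12 h and 7.76, 8.48, 7.56 and 7.44 at 18 h. The 18 h arrays all lay below the sham arrays, while the 6 h and 12 h arrays overlapped sham. It averaged 7.81 ± 0.47 at 18 h and 8.83 ± 0.22 in sham (SD, n = 4 each), a fall to 0.492-fold (95% interval 0.354 to 0.685) with a limma adjusted p of 0.00884. At 12 h the difference from sham was -0.29 (-0.77 to 0.18). The call depended on how the array sets were treated: with the set as a block the 18 h difference was -0.83 and the limma adjusted p 0.0600. Within replicates 1 and 2, which form 1 set, it was -0.64 (limma adjusted p = 0.361), and within replicates 3 and 4, where set and group cannot be told apart, it was -1.41 (limma adjusted p = 0.0116).

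The other ER exit members were not called. Mcfd2, the partner of ERGIC-53 in carrying coagulation factors, averaged 11.04 in sham, 11.15 at 6 h, 10.84 at 12 h and 10.88 at 18 h. Its 18 h difference from sham was -0.16 (-0.44 to 0.12). Sec24d, a cargo-binding subunit of the COPII coat, averaged 10.11 ± 0.20 at 18 h and 10.50 ± 0.11 in sham, and all 4 of its 18 h arrays lay below all 4 sham arrays. The difference was -0.39 (-0.67 to -0.10), with a limma adjusted p of 0.0832. It passed with the replicate number as a block (limma adjusted p = 0.0371) and with replicates 1 and 2 against 3 and 4 as a block (0.0254), and not with the array set as a block (0.156). All 4 ER exit members had lower means than sham at both 12 h and 18 h, beside 24 of all 37 members at 12 h and 31 at 18 h.

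**Figure D3:**
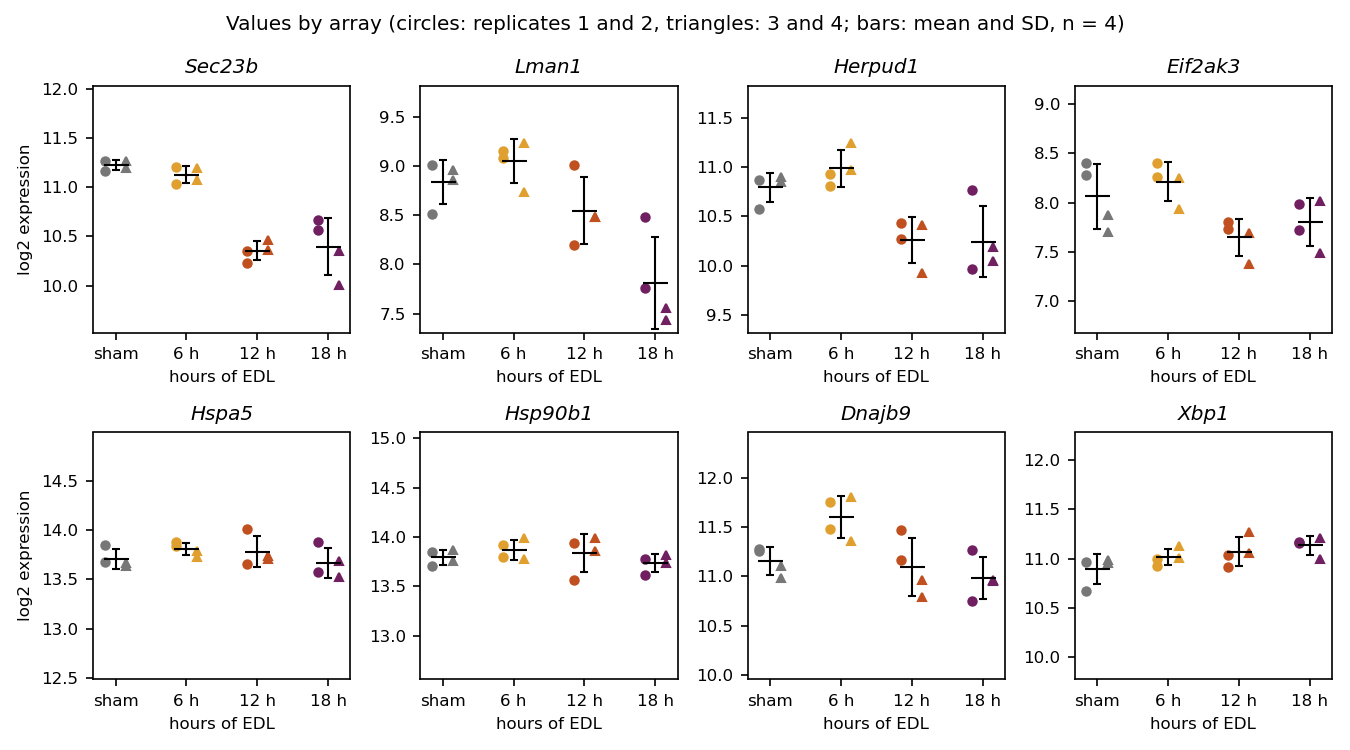
Log2 expression of 8 members on each array, by hours of EDL with sham at the left (circles: replicates 1 and 2; triangles: replicates 3 and 4; bars: mean and SD, n = 4), every panel spanning 2.5 log2 units. Sec23b shows a step, with all 12 and 18 h arrays below all sham and 6 h arrays, while the arrays of every group overlap for Hspa5 and Hsp90b1.

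The main ER chaperones were not called at any time, and their intervals were narrow. Hspa5 encodes BiP, the HSP70 chaperone of the ER and the usual marker of the unfolded protein response. It read 13.68, 13.85, 13.63 and 13.66 in the sham arrays, 13.84, 13.88, 13.79 and 13.73 at 6 h, 14.01, 13.66, 13.74 and 13.71 at 12 h and 13.58, 13.88, 13.69 and 13.53 at 18 h. Each ligated group overlapped sham. The differences from sham were 0.10 (-0.12 to 0.32) at 6 h, 0.073 (-0.15 to 0.29) at 12 h and -0.039 (-0.26 to 0.18) at 18 h, with 95% intervals in parentheses here and below. Hsp90b1, the HSP90 of the ER (GRP94), read 13.70, 13.85, 13.87 and 13.76 in the sham arrays, 13.80, 13.92, 13.99 and 13.78 at 6 h, 13.94, 13.56, 13.99 and 13.86 at 12 h and 13.61, 13.78, 13.82 and 13.74 at 18 h. It too overlapped sham at every time, with differences of 0.078 (-0.14 to 0.30), 0.041 (-0.18 to 0.26) and -0.058 (-0.27 to 0.16) at 6, 12 and 18 h. For both genes every one of these intervals lay within 1.5-fold either way.

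Hyou1 encodes GRP170, which exchanges nucleotide on BiP. It read 11.76, 12.14, 11.78 and 11.79 in the sham arrays, 11.92, 12.08, 12.21 and 11.75 at 6 h, 12.24, 11.08, 12.21 and 11.79 at 12 h and 11.31, 11.59, 11.77 and 11.47 at 18 h. The 12 h group spread widest, from 11.08 on replicate 2 to 12.24 on replicate 1, and its 18 h difference from sham was -0.34 (-0.80 to 0.13). Dnajb9 encodes ERdj4, a J-domain partner of BiP that is induced through XBP1. Its values were 11.27, 11.26, 10.98 and 11.11 in the sham arrays, 11.75, 11.48, 11.80 and 11.36 at 6 h, 11.47, 11.17, 10.97 and 10.79 at 12 h and 10.75, 11.27, 10.96 and 10.95 at 18 h. All 4 of its 6 h arrays lay above all 4 sham arrays, the single member to do so, beside 2.87% of all tested probe sets. The 6 h difference was 0.44 (0.11 to 0.78), and it missed the threshold (limma adjusted p = 0.569, unadjusted p = 0.013). At 12 and 18 h Dnajb9 overlapped sham, with differences of -0.058 (-0.39 to 0.28) and -0.17 (-0.51 to 0.16). Its difference at 12 h against 6 h was -0.50 (-0.84 to -0.17), with a limma adjusted p of 0.0934.

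Sdf2l1, a subunit of the ER chaperone complex that works with the J-proteins, read 12.14, 12.10, 12.47 and 12.38 in the sham arrays, 12.35, 12.35, 12.64 and 12.37 at 6 h, 11.62, 11.39, 12.59 and 12.20 at 12 h and 12.10, 11.90, 12.09 and 11.73 at 18 h. Its 18 h arrays all lay below its sham arrays, by a mean of -0.32 (-0.77 to 0.13) (limma adjusted p = 0.421). At 12 h its replicates 1 and 2 lay below every sham array and replicate 3 above them. Manf, an ER resident that binds BiP and can be secreted, read 12.68, 12.78, 12.88 and 12.96 in the sham arrays, 12.98, 12.86, 13.23 and 12.98 at 6 h, 12.94, 12.31, 13.18 and 12.91 at 12 h and 12.59, 12.52, 12.80 and 12.50 at 18 h. Its differences from sham were 0.19 (-0.15 to 0.52), 0.013 (-0.32 to 0.35) and -0.22 (-0.56 to 0.11) at 6, 12 and 18 h. Creld2, a secreted ER stress-inducible protein, had values of 11.15, 11.50, 11.82 and 11.77 in the sham arrays, 11.94, 11.79, 12.47 and 11.65 at 6 h, 12.03, 10.56, 12.43 and 11.82 at 12 h and 10.95, 11.33, 11.63 and 11.31 at 18 h. Its 12 h values ran from 10.56 to 12.43, wider than any difference between its group means, and its largest difference from sham was 0.40 (-0.29 to 1.10), at 6 h.

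Among the other BiP cofactors, Dnajb11 (ERdj3) averaged 10.40 in sham, 10.48 at 6 h, 10.33 at 12 h and 10.02 at 18 h. Dnajc3 (p58IPK, which also restrains PERK) averaged 11.67, 11.84, 11.31 and 11.27 in the same order. Sil1, the other nucleotide exchange factor of BiP, was the most variable member, with a pooled SD within groups of 0.67 against a median of 0.22 over the members. Its 12 h values alone ran from 6.68 to 9.04, and its differences from sham were 0.45 (-0.49 to 1.40), -0.22 (-1.16 to 0.72) and 0.031 (-0.91 to 0.97). In the main fit, 0 of the 10 chaperones and cofactors were called in any comparison. Their median difference from sham was 0.16 at 6 h, -0.049 at 12 h and -0.24 at 18 h. With array weights, Sdf2l1 and Dnajc3 passed at 12 h against sham (limma adjusted p = 0.0167 and 0.0360). They also passed at 12 h against 6 h (0.0160 and 0.0307). Sdf2l1 passed there with replicates 1 and 2 only (0.0298) and without 12 h replicate 3 (0.0416). Dnajb9 passed there with replicates 1 and 2 against 3 and 4 as a block (0.0403) and without 12 h replicates 1 and 2 together (0.0457).

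The disulfide isomerases and the lectin chaperones gave the same picture of small differences. The 4 isomerases were P4hb (PDI itself), Pdia3 (ERp57, which works with the lectin chaperones), Pdia4 (ERp72) and Pdia6 (P5). P4hb averaged 12.43 in sham, 12.57 at 6 h, 12.48 at 12 h and 12.39 at 18 h. Pdia3 averaged 13.50, 13.59, 13.42 and 13.45 in the same order. At 18 h Pdia6 differed from sham by -0.19 (-0.45 to 0.070) and Pdia4 by -0.12 (-0.70 to 0.46). The isomerases' differences from sham ranged from 0.087 to 0.30 at 6 h and from -0.19 to -0.039 at 18 h, and 0 of 4 were called.

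Canx encodes calnexin, the membrane lectin that holds new glycoproteins for folding. It read 11.81, 12.13, 12.07 and 12.07 in the sham arrays, 12.03, 12.08, 12.14 and 12.13 at 6 h, 11.95, 11.82, 12.05 and 12.04 at 12 h and 11.74, 11.97, 12.03 and 11.92 at 18 h. Every ligated group overlapped sham, and the differences were 0.075 (-0.13 to 0.28), -0.058 (-0.26 to 0.15) and -0.11 (-0.31 to 0.095) at 6, 12 and 18 h. Calr, its soluble relative calreticulin, differed by 0.15 (-0.076 to 0.38) at 6 h and -0.013 (-0.24 to 0.21) at 18 h. Uggt1, which marks misfolded glycoproteins with glucose for another round, averaged 8.20 in sham, 8.45 at 6 h, 8.39 at 12 h and 8.05 at 18 h, and its 18 h replicates 3 and 4 (7.65 and 7.62) lay below every sham array.

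Of the sensors and transcription factors, Xbp1 had a higher mean than sham at each time and was not called. Its product, when its message is spliced by IRE1, activates chaperone and ERAD genes; the array gave 1 value for the gene and did not separate spliced from unspliced message. Xbp1 read 10.67, 10.97, 10.96 and 10.99 in the sham arrays, 10.93, 11.00, 11.13 and 11.00 at 6 h, 11.03, 10.92, 11.27 and 11.05 at 12 h and 11.16, 11.17, 11.21 and 11.00 at 18 h. Sham replicate 1 was the lowest array, and all 4 of the 18 h arrays lay above all 4 sham arrays, beside 7.66% of all tested probe sets. The differences from sham were 0.12 (-0.097 to 0.33), 0.17 (-0.043 to 0.39) and 0.24 (0.022 to 0.45) at 6, 12 and 18 h, the last with a limma adjusted p of 0.173.

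Eif2ak3 encodes PERK, the sensor kinase that slows translation. It read 8.40, 8.28, 7.71 and 7.87 in the sham arrays, 8.40, 8.26, 8.25 and 7.94 at 6 h, 7.73, 7.80, 7.70 and 7.38 at 12 h and 7.98, 7.72, 8.01 and 7.49 at 18 h. Its 12 h arrays overlapped sham but all lay below the 6 h arrays. The 12 h difference was -0.41 (-0.78 to -0.045) against sham (limma adjusted p = 0.188) and -0.56 (-0.93 to -0.20) against 6 h (limma adjusted p = 0.0854). With the array set as a block the difference between 12 h and 6 h became -0.68, with a limma adjusted p of 0.0326. Atf6, the sensor that is cut in the Golgi to release a transcription factor, read 8.69, 9.01, 9.19 and 9.53 in the sham arrays, 8.95, 9.06, 9.53 and 9.46 at 6 h, 8.74, 8.55, 9.65 and 9.91 at 12 h and 9.08, 8.69, 9.60 and 9.47 at 18 h. Replicates 3 and 4 lay above replicates 1 and 2 in every group, and the differences from sham were 0.15 (-0.50 to 0.79), 0.11 (-0.54 to 0.75) and 0.11 (-0.54 to 0.75). Creb3l2, a membrane-bound factor known in mouse cartilage for driving COPII genes, averaged 2.86, 2.98, 2.86 and 2.90 in sham and at 6, 12 and 18 h, below the minimum of 5, and was not tested.

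Among the ERAD genes, Herpud1 was the one with a call, at 12 h against 6 h. It encodes a membrane protein that helps assemble the degradation complex around the ligase HRD1. Herpud1 read 10.58, 10.87, 10.89 and 10.84 in the sham arrays, 10.93, 10.80, 11.24 and 10.96 at 6 h, 10.43, 10.27, 10.41 and 9.92 at 12 h and 9.97, 10.76, 10.05 and 10.19 at 18 h. All 12 h arrays lay below all sham and all 6 h arrays, while at 18 h replicate 2 (10.76) stayed among the sham values. It averaged 10.26 ± 0.24 at 12 h and 10.99 ± 0.19 at 6 h (SD, n = 4 each), a fall to 0.605-fold (95% interval 0.470 to 0.779) with a limma adjusted p of 0.0289. That call held in 10 of 16 fits that left out 1 array. It was lost without 6 h replicate 1, 3 or 4 or 12 h replicate 1, 2 or 4, with log2 differences of -0.74, -0.64, -0.73, -0.78, -0.73 and -0.61 and limma adjusted p values of 0.0609, 0.0980, 0.0569, 0.0505, 0.0623 and 0.0727, in that order. With the array set as a block the log2 difference was -0.52 and the limma adjusted p 0.141. The call was also lost without 12 h replicates 1 and 2 together, the arrays that carried neutrophil transcripts. It was lost too with no minimum level, with only the 2 groups compared, with replicates 1 and 2 only and with replicates 3 and 4 only. Against sham the log2 differences were -0.53 (-0.90 to -0.17) at 12 h (limma adjusted p = 0.0753) and -0.55 (-0.92 to -0.19) at 18 h (limma adjusted p = 0.0548). Without 18 h replicate 2 they were -0.53 and -0.73, with limma adjusted p values of 0.0268 and 0.00676. The 18 h difference lay near the threshold: its limma adjusted p ran from 0.0125 to 0.0487 under 7 other settings that called it (variance prior, higher minimum level, centring, replicate block, replicates 1 and 2 against 3 and 4 as a block, array weights, mean of probe sets). With the array set as a block the 18 h difference was -0.35 and the limma adjusted p 0.306.

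The ligase itself, Syvn1 (HRD1), averaged 10.49 in sham, 10.88 at 6 h, 10.26 at 12 h and 10.03 at 18 h. Its difference between 12 h and 6 h was -0.62 (-1.10 to -0.13) (limma adjusted p = 0.16), and -0.68 with the array set as a block (limma adjusted p = 0.0499). Sel1l, which partners HRD1, had all 4 of its 12 h arrays below its 6 h arrays, by a mean of -0.46 (-0.90 to -0.025). Edem1, a mannosidase-like protein that marks glycoproteins for removal, averaged 9.58 at 18 h and 9.22 in sham, a difference of 0.36 (0.029 to 0.69) with a limma adjusted p of 0.179. The 18 h differences from sham of the derlins Derl1 and Derl2, channel proteins of ERAD, were -0.11 (-0.38 to 0.17) and -0.23 (-0.65 to 0.19). Those of the lectin Os9 and of the extracting ATPase Vcp were -0.17 (-0.69 to 0.34) and 0.046 (-0.16 to 0.26). In the main fit, 0 of the 8 tested ERAD members were called against sham at any time, while Herpud1 passed under the other settings given above.

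**Figure D4:**
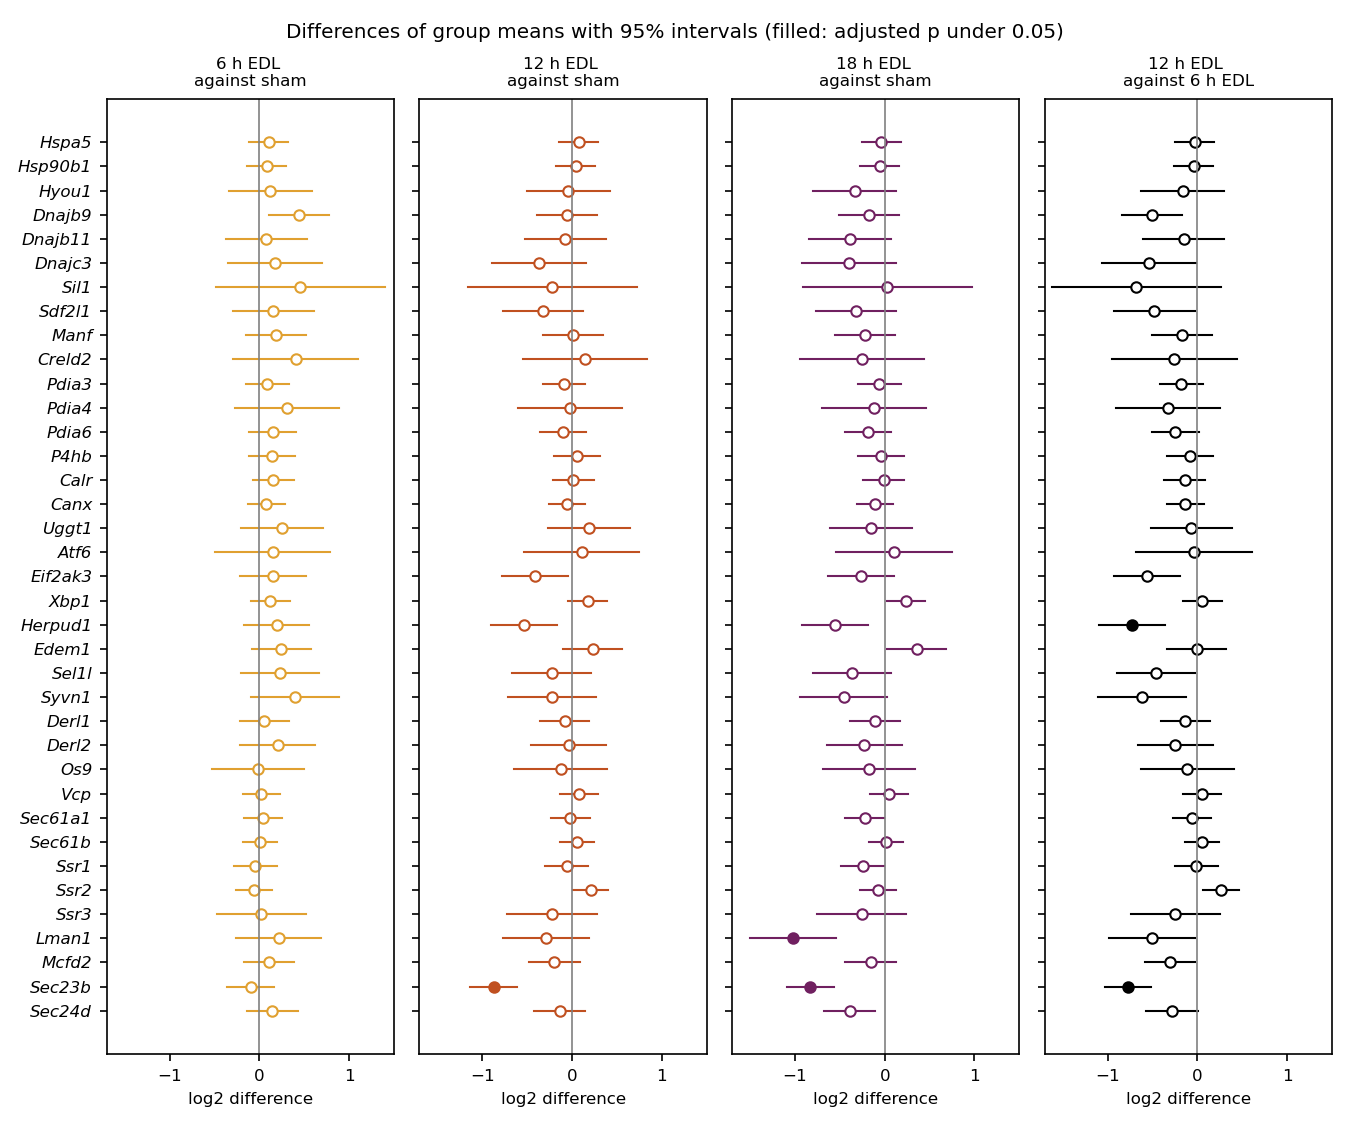
Log2 difference of group means for each tested member, with 95% intervals from the fit over 13410 probe sets, in 4 comparisons from left to right. Filled circles mark the called differences, which are Sec23b at 12 h, Sec23b and Lman1 at 18 h, and Herpud1 and Sec23b at 12 h against 6 h, and the widest interval in each panel belongs to Sil1.

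The translocon genes had the smallest median difference of the roles at 6 h, 0.0028. They encode the channel (Sec61a1 and Sec61b) and the associated signal sequence receptor complex (Ssr1, Ssr2 and Ssr3). At 6 h their differences from sham ranged from -0.056 to 0.040. Ssr2 averaged 11.09 ± 0.14 at 12 h and 10.88 ± 0.079 in sham, and its 12 h arrays all lay above its sham arrays, beside 6.37% of all tested probe sets. The difference was 0.21 (0.0048 to 0.41) with a limma adjusted p of 0.242, and at 18 h it was -0.074 (-0.27 to 0.13). At 18 h the differences were -0.22 (-0.44 to -0.0096) for Sec61a1 (limma adjusted p = 0.201) and -0.24 (-0.48 to -0.0038) for Ssr1 (limma adjusted p = 0.217). Sec61b had the smallest pooled SD of the members, 0.0995, and differed by 0.014 (-0.18 to 0.21) at 18 h. Ssr3 differed by -0.26 (-0.76 to 0.24). In the main fit, 0 of 5 were called. With replicates 3 and 4 only, Ssr3 passed at 18 h against sham (limma adjusted p = 0.0293).

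Counted over all roles, members whose ligated and sham arrays did not overlap numbered 1 higher and 0 lower at 6 h, where 1.54% of all tested probe sets were lower in this way. At 12 h they were 1 higher (Ssr2) and 2 lower (Herpud1 and Sec23b), the lower ones beside 5.41%. At 18 h they were 1 higher (Xbp1) and 4 lower (Sdf2l1, Lman1, Sec23b and Sec24d), the lower ones beside 6.53%. At 12 h against 6 h, 5 were lower (Eif2ak3, Herpud1, Sel1l, Mcfd2 and Sec23b) beside 6.42%, and 0 were higher beside 5.02%.

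The members tended to move together from array to array within groups. At 6 h, replicate 3 held the highest value for 21 of 37 members (56.8%), against 27.3% of all tested probe sets, and replicate 4 the lowest for 19 (51.4%), against 26.8%. At 12 h, replicate 2 held the lowest value for 25 members (67.6%), against 21.1%, and replicate 3 the highest for 20 (54.1%), against 30.6%. In sham, replicate 1 was lowest for 21 members (56.8%), against 26.6%. At 18 h, replicates 2 and 3 were highest for 15 and 16 members (40.5% and 43.2%), against 23.9% and 25% of all tested probe sets. Replicates 1 and 4 were lowest for 15 and 16 (40.5% and 43.2%), against 22.3% and 28.3%. The members' mean deviation from their group means was -0.28 on 12 h replicate 2, 0.19 on 12 h replicate 3, 0.14 on 6 h replicate 3 and -0.13 on sham replicate 1. It was 0.12 on 18 h replicate 2 and -0.11 on 18 h replicate 4. These shifts are of the same order as the members' median differences between groups, 0.14 at 6 h and -0.17 at 18 h. The epithelial markers moved with them on most of these arrays: their mean level was 11.09 on 12 h replicate 2 and 12.09 on 12 h replicate 3, 12.00 on 6 h replicate 3 and 11.66 on 6 h replicate 4, and 11.57 on sham replicate 1, the lowest of its group. On 12 h replicate 1 they did not: the marker mean was 11.28, while 26 of 37 members lay above their group mean, with a mean deviation of 0.083. At 18 h, replicate 4 was lowest for both, with a marker mean of 11.66. The members' mean deviation was highest on 18 h replicate 2, where the marker mean was 11.84. The marker mean was highest on 18 h replicate 3, at 12.07, where the members' mean deviation was 0.032. The neutrophil markers S100a8 and S100a9 were also highest on 12 h replicate 2. What part the makeup of the tissue pieces played was not tested.

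**Figure D5:**
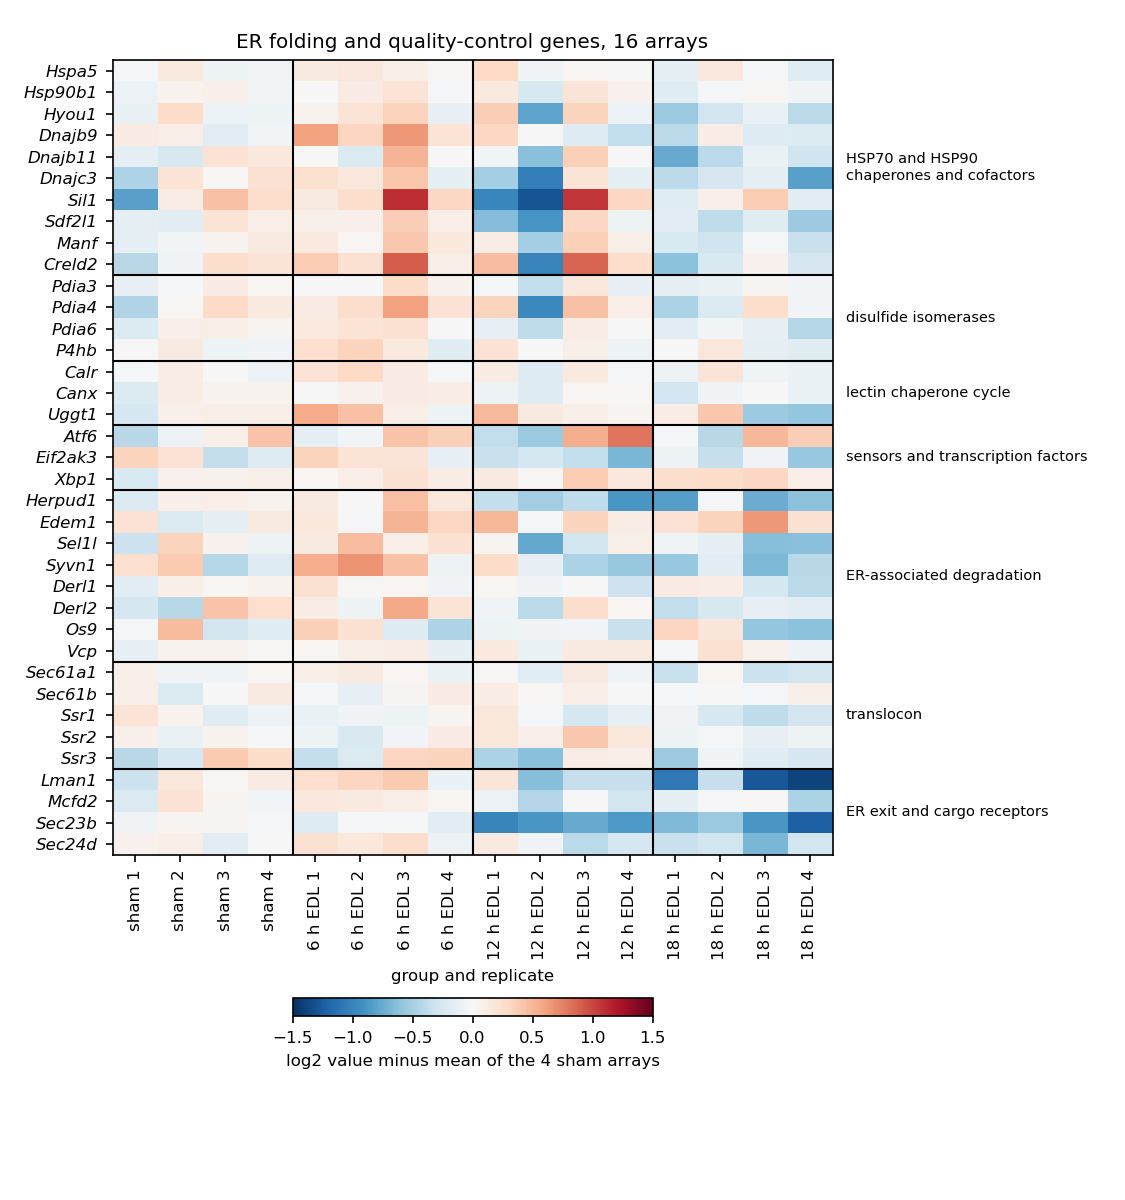
Log2 value of each tested member on each of the 16 arrays, minus its mean over the 4 sham arrays, with members grouped by role (red higher, blue lower). Sec23b is blue across all 12 h and 18 h arrays, and within the 12 h group replicate 2 is the lowest for 25 members and replicate 3 the highest for 20.

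Across replicate numbers, 6 members were called higher and 5 lower in replicates 3 and 4 than in replicates 1 and 2, beside the 36.9% of all tested probe sets given above. Sil1 was higher by 0.80, Atf6 by 0.70, Ssr3 by 0.51, Pdia4 by 0.43, Dnajb11 by 0.41 and Derl2 by 0.40. Os9, Syvn1, Uggt1, Eif2ak3 and P4hb were lower, with log2 differences of -0.51, -0.46, -0.34, -0.28 and -0.20. Sec23b, Lman1 and Herpud1 were not among them. The mean of 8 fibroblast markers split the same way, at 7.78 to 8.91 on the arrays of replicates 3 and 4 and 9.35 to 10.49 on those of replicates 1 and 2, and its part in these differences was not tested. In all, 11 of 37 members were called here, and beside that 36.9% the count is not a result about these genes as a group. All tested probe sets also had more calls here (4954) than in any comparison of the study's groups, where 1362 at 18 h against sham was the most.

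Further probe sets were tested for 9 of the members, 13 in all, and 0 of them were called in any of the 5 comparisons. The called genes Sec23b, Lman1 and Herpud1 had none. The second probe set of Hyou1 gave -0.71 at 18 h against sham (limma adjusted p = 0.178), where the probe set used here gave -0.34. The further ones of Ssr3 gave -1.13 (limma adjusted p = 0.206) and 0.0043, where the probe set used here gave -0.26. For Edem1 the further probe sets gave 0.18 and 0.32, and the one used gave 0.36.

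The members whose promoter window holds ERSE or ERSE-II are set beside the others here. There were 10 such members among those tested, and in the main fit 0 of them were called against sham at any time. Their median difference from sham was 0.12 at 6 h, -0.013 at 12 h and -0.18 at 18 h. The 19 tested members with a window but neither element had medians of 0.16, -0.058 and -0.17, and they include Sec23b and Lman1. At 12 h against 6 h the medians were -0.14 with an element and -0.30 without, and 1 member of each was called; the difference was not tested. Of the printed windows, that of Herpud1 alone belongs to a gene with a call, and its level fell at 12 h against 6 h.

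Genes around these members were counted over 5 further lists of 146 genes, of which 130 were tested: other chaperones and folding enzymes, translocon and glycosylation genes, ERAD genes, COPII and cargo receptor genes, and other sensors and transcription factors. At 6 h 0 were called by limma, with 3 at an unadjusted p under 0.05, beside 764 of the 13410 tested probe sets. At 12 h 1 rose and 2 fell, and at 18 h 2 rose and 6 fell. At 12 h against 6 h, 1 rose and 2 fell. Beside the 7.86%, 10.2% and 4.28% of all tested probe sets given above, these counts are not a result about the lists.

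The COPII list, with 29 tested genes, held 1 call at 12 h and 1 at 18 h, both Preb. It encodes SEC12, the ER protein that starts COPII coat assembly by activating the GTPase SAR1. Preb read 8.57, 8.84, 8.92 and 8.72 at 12 h and 8.44, 8.48, 8.75 and 8.97 at 18 h, against 9.58, 9.44, 9.81 and 9.99 in sham. Every array at both times lay below every sham array. The log2 differences were -0.94 at 12 h (limma adjusted p = 0.00452) and -1.05 at 18 h (limma adjusted p = 0.00155), called in all 16 fits that left out 1 array. Preb also fell at 12 h against 6 h, by 0.68 (limma adjusted p = 0.0478), but that call held in 4 of 16 such fits. The remaining 28 tested genes of the list were not called against sham at any time. Of all 29, 15 had higher means than sham at 12 h and 9 at 18 h, beside 54.24% and 51.78% of all tested probe sets.

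In the glycosylation list, Dpagt1, the first enzyme of the N-glycan precursor pathway, rose. It read 9.27, 8.90, 9.07 and 8.89 at 12 h and 9.16, 9.09, 8.995 and 8.91 at 18 h, against 8.55, 8.18, 8.53 and 8.31 in sham. All 12 h and 18 h arrays lay above all sham arrays, while the 6 h arrays overlapped sham. The log2 differences were 0.64 (limma adjusted p = 0.00225) and 0.65 (limma adjusted p = 0.00158), called in all 16 fits that left out 1 array. It rose at 12 h against 6 h too, by 0.47 (limma adjusted p = 0.0296), called in 10 of 16. Among the further transcription factors, Ddit3 had a higher mean than sham at each time and was called at 18 h. It encodes CHOP, induced under PERK signalling and by other stresses. Ddit3 read 7.53, 8.30, 8.85 and 7.25 at 18 h, against 6.27, 5.47, 6.24 and 5.95 in sham, a log2 difference of 2.00 (limma adjusted p = 0.0285). The call was lost without sham replicate 2, 3 or 4 or 18 h replicate 2 or 3, with log2 differences of 1.83, 2.09, 1.99, 1.90 and 1.71 and limma adjusted p values of 0.0787, 0.0531, 0.0681, 0.0709 and 0.0907, in that order. With the array set as a block its log2 difference was 1.75 and its limma adjusted p 0.0916. The 6 h arrays of Ddit3 read 7.21, 6.86, 8.15 and 7.07, all above the sham arrays, beside 2.87% of all tested probe sets. That log2 difference was 1.34 and was not called. At 12 h Ddit3 read 6.55, 6.19, 9.09 and 7.02, a log2 difference of 1.23. This was not called, but passed with the replicate number as a block (limma adjusted p = 0.04999).

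The remaining calls in these lists were falls. At 18 h Mlec (malectin, an ER lectin) fell by 0.86, Fkbp7 (a prolyl isomerase) by 0.61, Calu (calumenin, a calcium-binding ER protein) by 0.55, Spcs3 (a signal peptidase subunit) by 0.39 and Fam8a1 (a partner of HRD1) by 0.38 on the log2 scale, with limma adjusted p values from 0.0194 to 0.043. At 12 h Faf2 (a membrane recruiter of the ATPase VCP) fell by 0.43 (limma adjusted p = 0.0375). At 12 h against 6 h, Tusc3, an oligosaccharyltransferase subunit named after its values were seen, fell by 0.47 (limma adjusted p = 0.0496). These calls were not steady: of the 16 fits that left out 1 array, Mlec and Fkbp7 were called in 12, Fam8a1 in 11, Spcs3 in 8, Faf2 in 7, Calu in 4 and Tusc3 in 2. With the array set as a block, the log2 differences of Mlec, Calu and Tusc3 were -0.69, -0.42 and -0.36, and their calls were lost (limma adjusted p = 0.0672, 0.0735 and 0.144). Without the 12 h replicates 1 and 2, Faf2 differed by -0.22 at 12 h (limma adjusted p = 0.274).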

How the data were processed

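Gene expression was measured on 16 Affymetrix rat arrays, 1 per tissue sample. Per the submitters' processing notes, the deposited log2 values were made by the authors with GCRMA, which corrects background, normalizes across arrays and summarises probes into probe sets; which version was run is not stated there. GCRMA leaves dim probe sets near a floor, so 13410 of 31042 probe sets were tested, those at or above 5 on at least 4 of 16 arrays, after 57 controls were left out. Symbols came from the platform annotation (20826 probe sets had 1 symbol, 436 several and 9780 none). Group means were fitted to all arrays together with limma 3.58.1 (lmFit and eBayes, R 4.3.3, statmod 1.5.0), with Benjamini-Hochberg adjustment over all tested probe sets. The code was tested on simulated data. Arrays limit the precision by their number, 4 per group.

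The members and lists were chosen with earlier results of these data known. Every array is given for members called against sham and for the stress-response genes Hspa5, Hsp90b1, Xbp1, Atf6, Eif2ak3, Dnajb9, Sdf2l1, Herpud1, Creld2, Manf, Hyou1 and Canx; other members are given by means or ranges, and up to 4 called genes per further list are named. Alternatives changed the variance prior, the minimum level, centring, the groups fitted, blocks, array weights, probe sets per gene, the threshold and the arrays used. Leaving out 12 h replicates 1 and 2 together was chosen after seeing the data. Promoter windows came from RefSeq (GRCr8).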

Additional observations from a re-analysis of the deposited data

Results flagged for a closer look

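In groups of 4 arrays, a single array stood far from the other 3 (its gap to the nearest, as a share of the group's range, was above Dixon's 95% critical value) in 10 of the 148 groups of the 37 tested members; chance gives about 1 in 20. Of these, 4 were sham replicate 1 at the low end: Pdia6 read 13.46, with the nearest array at 13.70, Xbp1 read 10.67 (nearest 10.96), Herpud1 read 10.58 (nearest 10.84) and Uggt1 read 7.94 (nearest 8.28). In the 6 h group, Sdf2l1 read 12.64 on replicate 3 (nearest 12.37). In the 12 h group, Vcp read 11.52 on replicate 2 (nearest 11.76) and Os9 read 8.53 on replicate 4 (nearest 8.78). In the 18 h group, Calr read 13.39 on replicate 2 (nearest 13.12) and Sec24d read 9.82 on replicate 3 (nearest 10.17). Hyou1 read 12.14 on sham replicate 2 (nearest 11.79).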

How the results depend on the processing

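At 12 h against sham, the count of called members was 1, and became 2 with the replicate block and 4 with array weights. At 18 h against sham it was 2, and became 4 with the replicate block, 1 with the array set as a block, 4 with replicates 1 and 2 against 3 and 4 as a block, 1 with replicates 1 and 2 only and 4 with replicates 3 and 4 only. The 18 h count became 3, with Herpud1 added, under the other variance prior, the higher minimum level, centring, array weights and the mean of probe sets. Between 12 h and 6 h the count was 2, and became 1 with no minimum level, 1 with only the 2 groups compared, 4 with the replicate block, 5 with replicates 1 and 2 against 3 and 4 as a block, 0 with replicates 3 and 4 only, 5 with array weights and 1 at an adjusted p under 0.01. With the array set as a block it became 3 (Eif2ak3, Syvn1 and Sec23b), and Herpud1 was lost. Leaving out each array in turn gave 1 to 2 members at 12 h, 2 to 3 at 18 h and 1 to 3 at 12 h against 6 h. The 12 h count was 2 without 18 h replicate 2; the 12 h against 6 h count was 1 without 6 h replicate 1, 3 or 4 or 12 h replicate 1, 2 or 4, and 3 without 12 h replicate 3. At 6 h against sham and at 18 h against 12 h the count was 0 in every one of these leave-one-out fits. No log2 difference of a member or named list gene that was called changed sign. Over all tested probe sets, the calls numbered 38, 1054, 1362 and 574 at 6, 12 and 18 h against sham and at 12 h against 6 h. They were 46, 1709, 2165 and 1166 with the replicate block, 104, 2426, 2111 and 1471 with array weights, and 7, 653, 914 and 277 with no minimum level. Leaving out each array gave 7 to 48, 626 to 1132, 879 to 1426 and 245 to 625. With the replicate block the added members were Eif2ak3 at 12 h, Herpud1 and Sec24d at 18 h, and Eif2ak3 and Syvn1 at 12 h against 6 h. The labels tie no number to an animal or day, so the numbers were not taken to pair the arrays. Deviations of arrays with the same number correlated at 0.0065 to 0.56, and those of the other number in the same pair of replicates at -0.0056 to 0.63. Those across replicates 1 and 2 against 3 and 4 correlated at -0.60 to 0.0998. For 10 of 16 arrays the mean correlation was highest with the arrays of their own number. Because arrays correlated within the same pair of replicates whatever their number, this count cannot show a pairing by number. The cause of these changes was not tested.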
